A study of Mus musculus with 6 samples.

Results

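The keratins of simple epithelia examined here were Krt7, Krt8, Krt18, Krt19, Krt20 and Krt23, taken by gene symbol as 6 of the 52550 genes listed. The RNA came from GFP-positive cells of embryonic liver in CD-1 mice carrying the Sox9-GFP transgene, with 3 libraries per stage (A, B and C; E16.5 and E18.5), and each library was a pool of 15 livers. The sample labels give these stages as embryonic days 16 and 18, whereas the study's methods give E16.5 and E18.5, which are used here. Stage was the only labelled difference between the groups, since every library shared the strain, the transgene, the dissociation with collagenase and dispase and the sort. A GFP sort of this kind keeps whichever cells had the reporter on, so a library reports on sorted Sox9-GFP cells rather than on ducts dissected from tissue, and one pool gives no spread between embryos. Levels are in TPM, a read count scaled to exon length and to the sum over all genes of that library, and stages were compared with limma on log2(TPM + 1).

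Keratins build the intermediate filaments of epithelial cells. A filament forms only from pairs of a type I and a type II chain, so the members fall into the type II keratins Krt7 and Krt8 and the type I keratins Krt18, Krt19, Krt20 and Krt23. Krt8 and Krt18 are the first pair made in the embryo and the pair that adult hepatocytes keep, whereas bile duct cells, the cholangiocytes, add Krt7 and Krt19. Krt20 is best known from intestinal epithelium and the urothelium, and Krt23 is a less studied type I keratin. Filaments are anchored at the cell surface by desmosomes and hemidesmosomes through proteins of the plakin family.

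Type II and type I keratin genes lie in clusters on chromosomes 15 and 11 of the mouse genome (build GRCm38). Krt7 (chr15:101411043-101430313, plus strand) is apart from Krt8 (chr15:101996698-102004482, minus strand) and Krt18 (chr15:102028180-102032027, plus strand). Krt18 is the type I gene that lies in the type II cluster, and its start is 23698 bases from the start of Krt8, with the pair pointing away from each other. Krt20 (chr11:99428403-99438150), Krt23 (chr11:99477974-99493137) and Krt19 (chr11:100140810-100148665) are all on the minus strand of chromosome 11. No exon of a member shared bases with another listed gene, so overlapping or antisense genes could not add to these values.

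Krt20 and Krt23 are shown by sequence because they are 39824 bases apart on the same strand and, as described below, changed in opposite directions. The 250 bases before each RefSeq start (build GRCm38.p6, minus strand, 5′ to 3′) are printed with motif matches on either strand in capitals.
Krt20, chr11:99438154-99438403: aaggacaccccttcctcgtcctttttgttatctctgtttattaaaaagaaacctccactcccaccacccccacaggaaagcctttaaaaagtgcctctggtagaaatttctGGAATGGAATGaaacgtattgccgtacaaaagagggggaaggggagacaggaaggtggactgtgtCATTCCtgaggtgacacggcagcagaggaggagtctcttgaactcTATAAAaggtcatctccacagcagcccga
Krt23, chr11:99493121-99493370: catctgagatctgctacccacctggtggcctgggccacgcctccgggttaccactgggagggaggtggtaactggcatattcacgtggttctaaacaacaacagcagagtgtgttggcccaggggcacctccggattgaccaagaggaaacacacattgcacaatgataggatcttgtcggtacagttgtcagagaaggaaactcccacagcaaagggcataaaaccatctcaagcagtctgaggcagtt
In Krt20 the capitals mark TATAAA, the core of a TATA box, whose first base is 29 bases before the start, and 3 copies of GGAATG, the word bound by TEAD factors, of which 2 overlap on the forward strand and 1 is read on the reverse strand as CATTCC. The first word, TATAAA, was present in 12.4% and GGAATG in 12.6% of the 32851 mouse promoter windows of this length. The Krt23 window held neither word, nor GGGCGG (the GC box), TGANTCA (bound by AP-1), TGGGAA (bound by RBPJ) or AACAAT (bound by SOX factors), and it carries no capitals. Windows were at hand for 5 of the 6 members. Of the other members, the Krt7 window held 4 copies of GGGCGG, a word found in 32.7% of windows, the Krt8 window held 1 TGGGAA (21.6% of windows), and the Krt18 window held none of the 6 words. TGANTCA and AACAAT, present in 6.75% and 9.42% of all windows, were in none of the 5.

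A second sequence bears on how far the Krt8 values can be read. Krt8-ps, a processed pseudogene on chromosome 7 (chr7:23357125-23358069, plus strand), matched the Krt8 transcript over 941 bases at 98.6% identity with 13 mismatches. The coding stretch below, bases 1054 to 1143 of the Krt8 transcript and chr7:23357935-23358024 of the copy, is the 90-base stretch with the most differences, and capitals mark its 4 differing positions.
Krt8: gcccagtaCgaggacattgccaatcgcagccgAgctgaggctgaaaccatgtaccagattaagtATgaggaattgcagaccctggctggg
Krt8-ps: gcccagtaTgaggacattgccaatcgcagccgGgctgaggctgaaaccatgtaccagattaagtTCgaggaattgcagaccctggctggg
A read between such positions fits both genes equally well. Krt8-ps was listed at 162, 182 and 122 TPM in E16.5 libraries A, B and C, then at 295, 272 and 273 TPM in E18.5 A, B and C, levels that only Krt8 and Krt18 among the members exceeded in every library. Its reads were 0.104, 0.11 and 0.104 of the Krt8 reads at E16.5 and 0.105, 0.120 and 0.103 at E18.5, which overlapped between the stages (exact two-sided permutation test, p = 0.7). How many of these reads came from Krt8 cannot be told from the table. The one copy of Krt18 found, Gm5200, matched it at 90.2% identity over 1269 bases and reached at most 0.470 TPM. The other members had no copy at 90% identity or more over 200 bases.

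Depth recovered from the TPM steps was 23193537 to 26206374 reads at E16.5 but 13093937 to 22643868 at E18.5, and the members rested on between 45 reads (Krt20 in E18.5 B) and 18112 reads (Krt8 in E18.5 A) per library. Of 12 cholangiocyte markers (among them Sox9 and Epcam) 9 rose and 0 fell, with a summed level that went from 844 to 2714 TPM at E16.5 up to 8228 to 14278 TPM at E18.5. Spp1, osteopontin, made most of that sum, and without it the other markers summed to 375 to 947 TPM at E16.5 but 1599 to 2158 TPM at E18.5, a mean 2.66-fold higher. The 9 calls came to 2 without E18.5 A, 3 without E18.5 B and 4 with median-of-ratios scaling. The 12 hepatoblast markers (among them Alb and Hnf4a), of which 7 fell and 0 rose, still summed to 41713 to 103374 TPM at E18.5 after 179600 to 228298 TPM at E16.5, so libraries labelled as cholangiocytes held much RNA of hepatoblast marker genes. Those 7 calls came to 2 without any one E16.5 library or without E18.5 A, and to 6 with median-of-ratios scaling. E16.5 C stood apart, with the lowest cholangiocyte sum (844 TPM against 2110 and 2714 TPM in E16.5 A and B) and the highest hepatoblast sum. E16.5 A had the most pancreatic acinar RNA, 2490 TPM over 8 markers against 226 and 70.1 TPM in E16.5 B and C and 5.37 to 48.8 TPM at E18.5. All 8 mesothelium markers rose, from a sum of 4.85 to 13.8 TPM to one of 50.8 to 108 TPM, and 0 of the 8 was at 0 in every library. Of the other lists, 6 of 6 megakaryocyte markers fell, 3 of 6 tested acinar and 2 of 9 tested gut and gallbladder markers fell, 2 of 6 mesenchyme markers and 1 of 6 leukocyte markers rose, and 0 of 5 erythroid, 0 of 6 endothelial and 0 of 1 tested stratified epithelium markers passed the test in either direction. Over all 22452 genes tested, 26.0% rose and 5.22% fell, against 6.81% and 10.4% with median-of-ratios scaling. The mesenchyme and leukocyte counts were near or under the share of all genes that rose. With 1 library left out, the 6 megakaryocyte calls stayed within 1.5 times, the 8 mesothelium calls came to 5 without E18.5 B, the 2 gut and gallbladder calls to 0 without E18.5 A, and the 3 acinar calls to 0 without E16.5 B or any one E18.5 library. In pooled sorted cells, fewer cells of a type and less RNA per cell cannot be told apart.

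All 6 keratins passed the filter of a mean of 1 TPM, and all 6 had stages that did not overlap, 5 higher and 1 lower at E18.5. Over all 22452 genes tested, 53.3% had stages apart, 45.0% higher and 8.30% lower. In the limma test, with p-values adjusted by Benjamini-Hochberg across every gene tested, 4 keratins rose (Krt7, Krt8, Krt19 and Krt23), 1 fell (Krt20) and 1 did not pass (Krt18), where 31.2% of all genes tested passed, 26.0% by rising and 5.22% by falling. The smallest p an exact permutation test of 3 against 3 libraries can give is 0.1, and each of the 6 keratins reached it. Nothing in the labels says that the pools were independent litters, so the p-values measure the spread between these libraries.

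**Figure D1:**
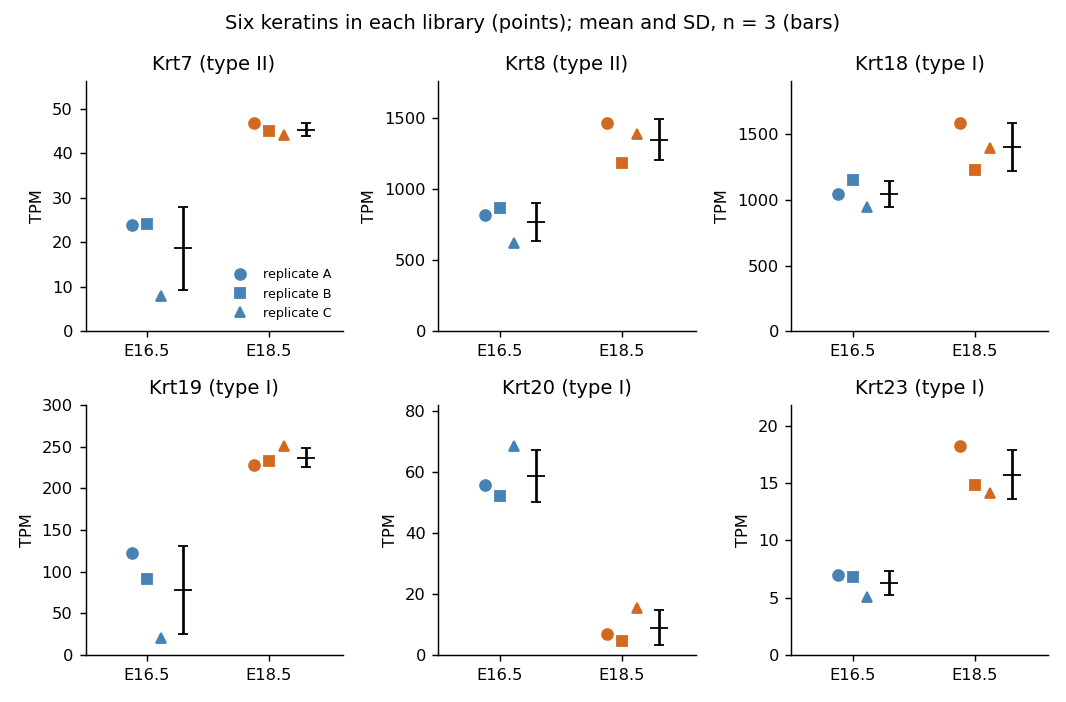
TPM (vertical axes, each from 0) of the 6 keratins in each library at E16.5 and E18.5, with marker shapes for replicates A, B and C and a bar for the mean and SD of n = 3. The stages do not overlap in any panel, Krt20 is the only one lower at E18.5, and within E16.5 library C is the lowest point of every panel but that of Krt20, where it is the highest at 68.2 TPM.

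Krt8, the type II partner of the pair shared by hepatoblasts and duct cells, was at 816, 867 and 617 TPM at E16.5 and at 1467, 1185 and 1390.4 TPM at E18.5. All the E18.5 libraries were above all the E16.5 libraries, and Krt8 ranked above at least 99.6% of protein-coding genes in every one. Its mean rose from 767 ± 132 to 1348 ± 146 TPM (SD, n = 3 each), a log2 fold change of 0.82 (SE 0.18, limma adjusted p = 0.019). With the reads of Krt8-ps added to it, a reading chosen after the values were seen, the log2 fold change was 0.83. Without E18.5 A it was 0.76 and no longer passed (limma adjusted p = 0.067).

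Krt18, the type I partner of Krt8, was at 1041, 1147 and 944 TPM at E16.5 and at 1586, 1225 and 1393 TPM at E18.5. The stages did not overlap, but the lowest E18.5 library was close to the highest E16.5 library. The means were 1044 ± 102 and 1401 ± 181 TPM, with a log2 fold change of 0.42 (SE 0.16) that did not pass (limma adjusted p = 0.080). The median over all 22452 genes was also 0.42.

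Krt19, the type I keratin most used to mark ducts, was at 122, 90.7 and 20.1 TPM at E16.5 and at 227, 233 and 250.1 TPM at E18.5. E16.5 C was far under the other E16.5 libraries, whereas the E18.5 libraries lay within 1.10-fold of each other. The mean rose from 77.8 ± 52.4 to 237 ± 11.9 TPM, a log2 fold change of 1.94 (SE 0.60, limma adjusted p = 0.047). Without E16.5 C it was 1.16 (limma adjusted p = 0.014) and without E16.5 A, the library with the most acinar RNA, 2.43 (limma adjusted p = 0.039). The call was lost without E16.5 B or any one E18.5 library, with limma adjusted p between 0.059 and 0.105.

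Krt7, the type II keratin that duct cells add, was at 24.0, 24.2 and 7.89 TPM at E16.5 and at 46.9, 44.95 and 44.1 TPM at E18.5. E16.5 C was again the lowest library, and the E18.5 libraries were within 1.06-fold of each other. The mean rose from 18.7 ± 9.33 to 45.3 ± 1.42 TPM, a log2 fold change of 1.38 (SE 0.39, limma adjusted p = 0.036). Without E16.5 C it was 0.89 (limma adjusted p = 0.012) and without E16.5 A 1.63 (limma adjusted p = 0.046). The call was lost without any one E18.5 library, with limma adjusted p between 0.070 and 0.095. Mesothelial cells and pancreatic ducts also make Krt7, Krt8, Krt18 and Krt19, and the part of the mesothelium and acinar marker levels given above in their changes was not tested.

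Krt20 was the keratin that fell. It was at 55.5, 52.0 and 68.2 TPM at E16.5 and at 6.98, 4.57 and 15.3 TPM at E18.5, so its highest E18.5 library was far under its lowest E16.5 library. The E16.5 mean was 58.6 ± 8.54 TPM and the E18.5 mean 8.96 ± 5.65 TPM (SD, n = 3 each), which is 6.54-fold lower. With 1 library left out it was from 5.25-fold (without E18.5 B) to 10.1-fold lower (without E18.5 C). On the log2(TPM + 1) scale Krt20 fell by 2.72 (SE 0.37, limma adjusted p = 0.0089). The difference was -2.37 without E18.5 B and -3.15 without E18.5 C, the ends of the range with 1 library left out. The low values rested on 92, 45 and 120 reads in E18.5 A, B and C, and the exact binomial 95% interval of the E18.5 B value was 3.33 to 6.11 TPM, counting error only. In rank, Krt20 was above 88.6% to 92.5% of protein-coding genes at E16.5 and above 46.3% to 62.5% at E18.5. Gut and gallbladder markers, which mark tissues where Krt20 can be made, summed to 128 to 223 TPM at E16.5 but 89.3 to 105 TPM at E18.5. The 9 tested markers of that list had a median log2 fold change of 0.17, against 0.42 over all genes. With median-of-ratios scaling the median was -0.11, against 0.02 over all genes. Vil1, Tff2, Sox17, Pdx1 and Cdh17 had changes between 0.17 and 0.61, none of which passed. With median-of-ratios scaling Vil1, Sox17 and Cdh17 were at -0.11, -0.08 and -0.04. Cdx2 and Lgals4 had log2 fold changes of -1.17 and -0.81 and did not pass on TPM as deposited. Lgals4 passed with median-of-ratios scaling (-1.25, limma adjusted p = 0.036) and with quantile normalization (-1.18, limma adjusted p = 0.041). On TPM as deposited, the 2 genes of that list that passed the test were Muc13 and Tff3. Muc13, an epithelial mucin, was at 30.5, 13.0 and 36.0 TPM at E16.5 and at 1.64, 6.70 and 1.70 TPM at E18.5. It fell by 2.74 on the log2 scale (limma adjusted p = 0.015). Tff3, a trefoil peptide of goblet cells, was at 55.9 to 62.9 TPM at E16.5 but 14.3 to 40.0 TPM at E18.5. It fell by 1.24 (limma adjusted p = 0.031). E16.5 C was the lowest of its stage in the summed list but the highest in Muc13 and in Krt20. At E18.5, however, Muc13 was highest in library B, where Krt20 was lowest. Within each stage Muc13 ranked libraries A, B and C as the summed megakaryocyte markers did. Those sums were 5406, 3103 and 9067 TPM at E16.5 and 83.0, 715 and 201 TPM at E18.5. Library C was the highest of its stage both in Krt20 and in the summed hepatoblast markers at E16.5 and again at E18.5 (228298 and 103374 TPM in that sum). The part of these tissues and cells in the change was not tested.

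Krt23, the next keratin gene shown above, was at 7.0, 6.80 and 5.05 TPM at E16.5 and at 18.2, 14.9 and 14.2 TPM at E18.5. All the later libraries, at 14.2 TPM or more, were well above all the earlier ones. The mean rose from 6.28 ± 1.08 to 15.8 ± 2.16 TPM, a log2 fold change of 1.21 (SE 0.19, limma adjusted p = 0.011). It rested on 63 to 94 reads per library at E16.5 and on 90 to 195 at E18.5.

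In order of level, the means at E16.5 ran Krt18, Krt8, Krt19, Krt20, Krt7 and Krt23, and only Krt19 and Krt20 overlapped as neighbours. At E18.5 the order was Krt18, Krt8, Krt19, Krt7, Krt23 and Krt20, where Krt18 overlapped Krt8 and Krt23 overlapped Krt20. Krt20 thus moved from the fourth place to the last. Levels of different genes are compared here per base of exon. For Krt7 the exon length behind the TPM, 7055 bases, exceeded that of its longest coding transcript, 4094 bases, and on the shorter length it came to between 13.6 and 41.6 TPM at E16.5, then to between 76.0 and 80.8 TPM at E18.5, which leaves its place in both orders.

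How the libraries are scaled decided several of these calls. Of the genes tested, 5828 rose and 1172 fell on TPM as deposited, against 1528 and 2335 with median-of-ratios scaling, which sets the median gene's ratio between libraries to 1, and 1916 and 1880 with quantile normalization. The median gene changed on the log2 scale by 0.42, 0.02 and 0.06 in that order. Krt20 fell in each, by 2.72, 3.14 and 3.04 on the log2 scale, and Krt23 rose in each, by 1.21, 0.79 and 0.78 (limma adjusted p at most 0.023). Krt8 passed with quantile normalization (0.96, limma adjusted p = 0.021) but not with median-of-ratios scaling (0.37, limma adjusted p = 0.18). Krt7 and Krt19 passed in neither, at 0.95 and 1.49 with median-of-ratios scaling (limma adjusted p = 0.11 and 0.12) and at 1.03 and 1.75 with quantile normalization (limma adjusted p = 0.085 and 0.081). Krt18 was at -0.03 and 0.64. With median-of-ratios scaling 1 of 6 keratins rose and 1 fell, where 17.2% of all genes passed, 6.81% up and 10.4% down, and with quantile normalization 2 rose and 1 fell, where 16.9% passed, 8.53% up and 8.37% down.

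**Figure D2:**
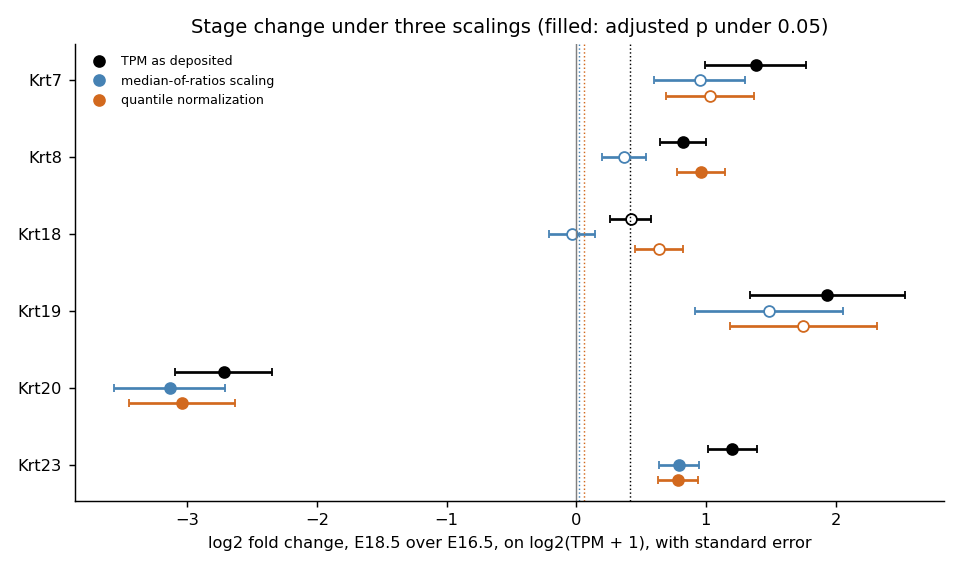
Log2 fold change of each keratin, E18.5 over E16.5 on log2(TPM + 1), with its standard error, for TPM as deposited (black), median-of-ratios scaling (blue) and quantile normalization (orange); filled points passed the limma test at an adjusted p under 0.05, and dotted lines mark the median of all genes tested. Krt20 stays near -3 and Krt23 near 1 with filled points under each scaling, whereas Krt18 sits on the median of all genes on TPM as deposited.

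A share within a library does not depend on scaling between libraries. The 6 keratins summed to 2066, 2187 and 1662 TPM at E16.5, then to 3353, 2708 and 3107 TPM at E18.5, that is 0.197% and 0.306% of all TPM on average. The sum was 1.55-fold higher at E18.5 with no overlap between stages (exact two-sided permutation test, p = 0.1, the smallest possible), and the difference of 1084 TPM came to 324 TPM with median-of-ratios scaling. Krt8 and Krt18 together made 89.9% to 93.9% of that sum at E16.5 but 89.0% to 91.1% at E18.5, and these ranges overlapped.

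The share of type II chains was higher in every E18.5 library than in any E16.5 library, at the smallest p that 3 libraries a stage allow. Type II keratins (Krt7 and Krt8) made 40.7%, 40.7% and 37.6% of the summed keratin TPM at E16.5 and 45.2%, 45.4% and 46.2% at E18.5. The mean share was 39.7% ± 1.78 and 45.6% ± 0.526 (SD, n = 3), with no overlap (exact two-sided permutation test, p = 0.1). For the main pair alone, the TPM ratio of Krt18 over Krt8 was 1.27, 1.32 and 1.53 at E16.5 and 1.08, 1.03 and 1.0 at E18.5, so transcripts of the partners were nearly even at the later stage. With the reads of Krt8-ps counted as Krt8 the mean ratio was 1.24 at E16.5 and 0.937 at E18.5, and the type II share was 42.0% and 48.1%. With Krt7 on its longest coding transcript the type II share was 40.1% and 46.2%, so neither reading turned the direction.

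Among the type I chains, Krt18 and Krt20 had lower shares at E18.5 than at E16.5, and Krt19 and Krt23 had higher ones. Krt18 made 50.4%, 52.4% and 56.8% of the summed keratin TPM at E16.5 and 47.3%, 45.2% and 44.8% at E18.5. Krt19 made 5.92%, 4.15% and 1.21% at E16.5 and 6.78%, 8.60% and 8.05% at E18.5, and Krt20 made 2.69%, 2.38% and 4.11% at E16.5 and 0.208%, 0.169% and 0.494% at E18.5. The Krt19 to Krt20 ratio, set up after the values were seen, was 2.21, 1.74 and 0.295 at E16.5 and 32.6, 51.0 and 16.3 at E18.5. In E16.5 C alone Krt20 exceeded Krt19. Krt23 made at most 0.549% in any library. All 6 shares had stages that did not overlap, at an exact permutation p of 0.1 each, also after Benjamini-Hochberg adjustment over the 6 shares. The shares make up the whole of the sum in each library, so lower ones go with higher others and these are not 6 separate results. No share over all genes is given beside this count.

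**Figure D3:**
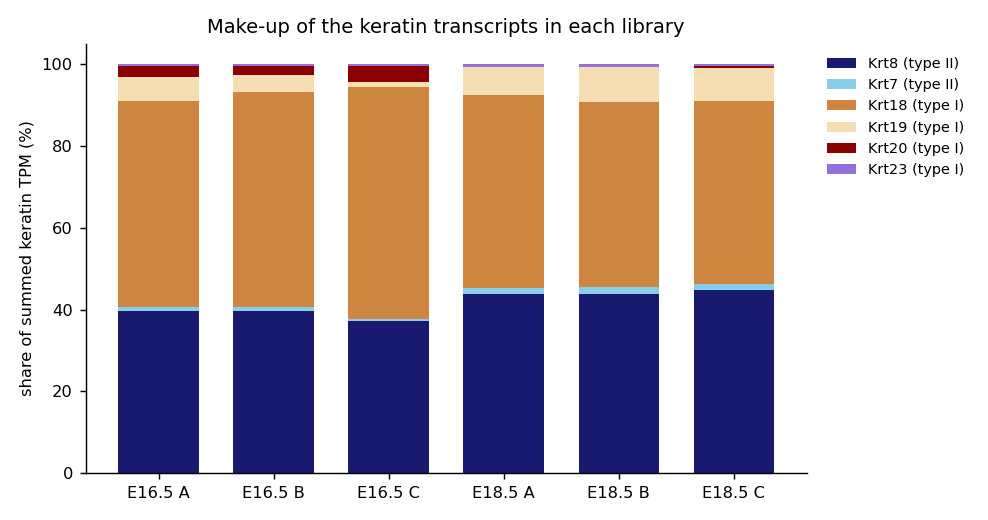
Share of the summed keratin TPM (vertical axis, percent, from 0) of each keratin in each library, with type II chains in blues at the base and type I chains above. The blue part ends between 37.6% and 40.7% at E16.5 and between 45.2% and 46.2% at E18.5, and the dark red band of Krt20 shrinks from at least 2.38% to at most 0.494%.

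Whether the keratins changed by unequal amounts was examined in all 15 pairs, as the difference of their log2(TPM + 1) in each library. In 12 pairs the stages did not overlap, and in 8 the 95% interval of the difference in change left out 0. Every pair with Krt20 was in both counts. The pairs reuse the same keratins, the intervals were not adjusted for the number of pairs, and no share over all gene pairs is given. These counts are therefore no result about the keratins. No pair could pass after adjustment, since the smallest adjusted exact permutation p over the 15 pairs was 0.125. Krt20 differed from every other keratin by 3.14 to 4.66 on the log2 scale. Krt8 rose by 0.40 more than Krt18 changed (95% interval 0.16 to 0.64). For Krt7 and Krt19, the keratins that duct cells add, the difference in change was -0.55 with an interval of -1.42 to 0.32, which also holds sizable differences, and for Krt7 and Krt23 it was 0.18 (-0.87 to 1.23).

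The keratins were next set beside markers of the sorted cells, in ratios chosen after their values were seen. Epcam, a surface protein of epithelial cells including ducts, was at 105, 118 and 33.2 TPM at E16.5 and at 273, 307 and 206 TPM at E18.5. Krt19 per unit of Epcam was 1.16, 0.771 and 0.606 at E16.5 and 0.832, 0.758 and 1.22 at E18.5, which overlapped (exact two-sided permutation test, p = 0.6). Krt7 per Epcam ranged from 0.205 to 0.237 at E16.5 and from 0.146 to 0.215 at E18.5 (exact permutation p = 0.2), and Krt23 per Epcam from 0.0577 to 0.152 and from 0.0484 to 0.0689 (exact permutation p = 0.6). These overlaps do not show that the ratios were equal.

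Of the 6 ratios to Epcam, those of Krt8, Krt18 and Krt20 were lower at E18.5. Mean TPM rose 3.07-fold for Epcam and 2.99-fold for Sox9, so any gene that rose by less would tend to a lower ratio. Krt8 per Epcam was 7.75, 7.36 and 18.6 at E16.5 and 5.37, 3.86 and 6.76 at E18.5, and Krt18 per Epcam was 9.88, 9.74 and 28.4 at E16.5 and 5.81, 3.99 and 6.78 at E18.5. E16.5 C was the high library in each. Krt20 per Epcam was 0.527, 0.442 and 2.05 at E16.5 and 0.0255, 0.0149 and 0.0746 at E18.5. Each of these 3 ratios had stages apart at the smallest possible exact permutation p of 0.1. Over Sox9, the gene behind the reporter, the ratios of Krt7, Krt19 and Krt23 overlapped and those of Krt8, Krt18 and Krt20 were lower at E18.5. Hnf4a, a regulator of hepatocyte genes, was at 252, 247 and 255 TPM at E16.5 and at 173, 126 and 197 TPM at E18.5, and Krt20 per Hnf4a was 0.220, 0.211 and 0.267 at E16.5 and 0.0403, 0.0362 and 0.0780 at E18.5. The 12 hepatoblast markers differed in how far they fell, with a mean TPM 1.52-fold lower for Hnf4a but 7.10-fold lower for Afp, which encodes the fetal serum protein alpha-fetoprotein. Krt20 per Afp was 0.00222, 0.00198 and 0.00217 at E16.5 and 0.00144, 0.00206 and 0.00335 at E18.5, and the stages overlapped. Of the ratios of Krt20 to the 12 hepatoblast markers, computed after the values were seen, 9 were lower at E18.5 with stages apart and 3 overlapped, those to Afp, Apoa1 and Dlk1. No share over all genes is given for these ratios or for those to Epcam and Sox9, so the counts are no result about the keratins.

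**Figure D4:**
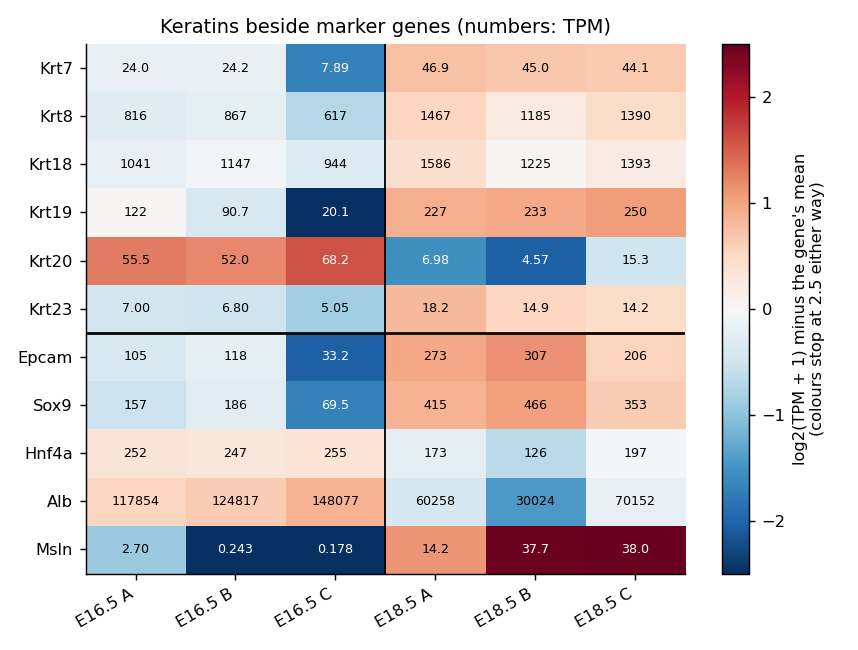
Heat map of log2(TPM + 1) minus each gene's mean over the 6 libraries (colour), with the TPM printed in each cell, for the keratins (above the line) and Epcam, Sox9, Hnf4a, Alb and Msln (under it). Krt7, Krt19, Epcam and Sox9 are all lowest in E16.5 C, with Krt7 at 7.89 and Krt19 at 20.1 TPM, and Krt20 is red at E16.5 and blue at E18.5 as are Alb and Hnf4a.

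Most other keratins were scarce. Of 49 other genes with a keratin symbol, 42 had a mean under 1 TPM, at most 0.425 TPM, and 7 were tested. Krt8-ps had a mean of 218 TPM, and Krt17 averaged 22.3 TPM at E18.5, above the E18.5 mean of Krt20 (8.96 TPM). Of the 7, 5 rose and 0 fell, where 26.0% of all genes tested rose and 5.22% fell. Among these 5 was the pseudogene Krt8-ps, and how many of its reads came from Krt8 cannot be told. Krt17, a type I keratin of basal and injured epithelium, was at 4.14, 3.72 and 1.86 TPM at E16.5 and at 21.9, 7.06 and 38.1 TPM at E18.5 (log2 fold change 2.23, SE 0.56, limma adjusted p = 0.027). It no longer passed when any one library other than E18.5 B was left out (limma adjusted p = 0.052 to 0.082), and without E18.5 B its log2 fold change was 2.86. Krt4, a type II keratin of internal stratified epithelia, rose by 1.12 (limma adjusted p = 0.028), as did Krt87 by 1.80 (limma adjusted p = 0.014), Krt88 by 1.39 (limma adjusted p = 0.026) and Krt8-ps by 0.86 (limma adjusted p = 0.014). Krt87 lies 725 bases from the end of Krt7 and reached 3.75 to 8.90 TPM at E18.5. Krt10 and Krt80 did not pass, with log2 fold changes of -0.12 and 0.58. With median-of-ratios scaling, where 6.81% of all genes rose, 1 of the 7 rose, Krt87 (1.49, limma adjusted p = 0.037), and in the deposited TPM 0 passed without E18.5 A, 2 without E16.5 B or E16.5 C and 3 without E18.5 B or E18.5 C.

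Genes linked to the keratin network were taken as a broad list of 29 for desmosomes, hemidesmosomes, plakins and keratin organisers, of which 28 were found and 23 tested. The list also held genes such as Macf1 and Krtcap3, so its counts are not counts of filament anchors alone. In it 14 rose, 1 fell and 8 did not pass, with a median log2 fold change of 0.67 against 0.42 over all genes, of which 26.0% rose and 5.22% fell. With median-of-ratios scaling 4 rose and 4 fell, at a median of 0.23 against 0.02 over all genes, of which 6.81% rose and 10.4% fell. The count of 15 calls came to 1 without E18.5 A and to 5 without E18.5 B, where the calls over all genes went from 7000 to 1472 and 2917.

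Among the desmosome genes, the cadherin Dsg2 was at 212, 255 and 131 TPM at E16.5 and at 393, 432 and 316 TPM at E18.5 (log2 fold change 0.97, limma adjusted p = 0.030). Dsp, desmoplakin, which ties keratin filaments to the desmosome, rose by 1.08 (limma adjusted p = 0.014), and Pkp3, a plakophilin of the desmosome plaque, rose by 1.30 (limma adjusted p = 0.036). The cadherin Dsc2 was at 59.6 to 94.6 TPM at E16.5 and at 77.5 to 112 TPM at E18.5 and did not pass (0.32, and -0.13 with median-of-ratios scaling), except with the replicate letters as a block (0.32, limma adjusted p = 0.044). Of the plakins, Ppl (periplakin) went from 13.0 ± 2.55 to 33.1 ± 0.903 TPM (SD, n = 3), a rise of 1.30 on the log2 scale (limma adjusted p = 0.0085). Evpl (envoplakin) rose by 1.58 (limma adjusted p = 0.016) and Macf1, a linker of actin and microtubules, by 0.67 (limma adjusted p = 0.014). Dst, another plakin of the list, was at -0.32 and did not pass (limma adjusted p = 0.054). With median-of-ratios scaling Dst passed as a fall (-0.76, limma adjusted p = 0.014). The 2 chains of the hemidesmosome integrin moved in opposite directions: Itgb4 rose by 1.36 (limma adjusted p = 0.016), whereas Itga6 was at 105, 60.8 and 120 TPM at E16.5 and at 23.6, 40.6 and 26.2 TPM at E18.5 and fell by 1.61 (limma adjusted p = 0.014). Krtcap3, a keratinocyte-associated protein, rose by 1.16 (limma adjusted p = 0.036). With median-of-ratios scaling Dsg2 (0.51, limma adjusted p = 0.12), Pkp3 (0.89, limma adjusted p = 0.12), Macf1 (0.22, limma adjusted p = 0.070) and Krtcap3 (0.72, limma adjusted p = 0.11) no longer passed, whereas Dsp, Ppl, Evpl, Itgb4 and Itga6 did. Itga6 pairs with other beta chains too and is made by megakaryocytes, whose 6 markers fell with a summed level of 3103 to 9067 TPM at E16.5 but 83.0 to 715 TPM at E18.5, and their part in its fall was not tested.

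**Figure D5:**
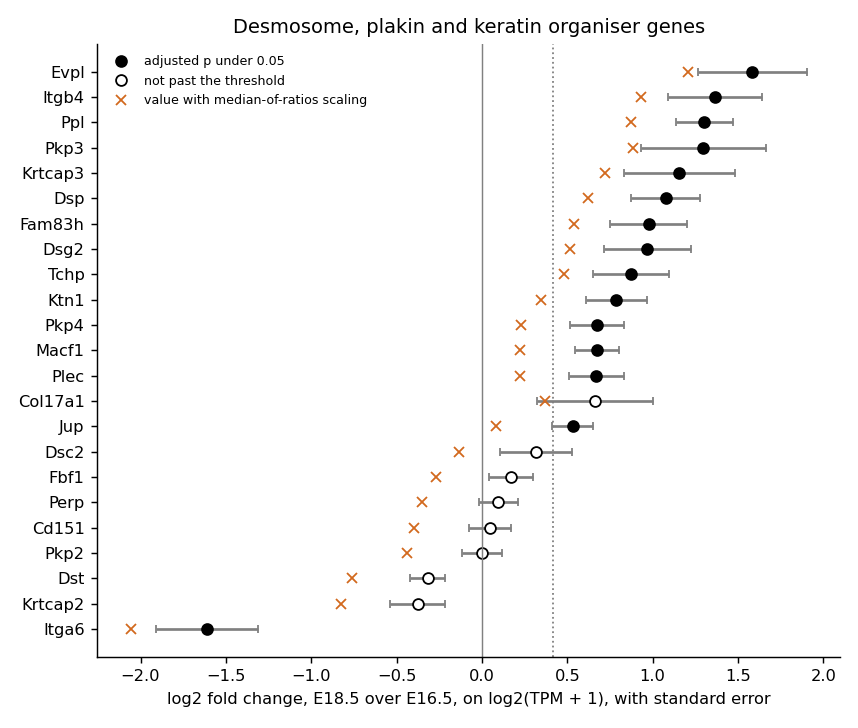
Log2 fold change, E18.5 over E16.5 on log2(TPM + 1), with standard error, of the 23 tested genes of the desmosome, plakin and organiser list; filled points passed the limma test (adjusted p under 0.05), crosses give the value with median-of-ratios scaling and the dotted line is the median of all genes, 0.42. Evpl lies farthest to the right at 1.58, and Itga6 farthest to the left at -1.61.

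Of the other intermediate filament genes, 7 of 9 were tested, 1 rose and 0 fell, where 26.0% of all genes tested rose and 5.22% fell. With median-of-ratios scaling 0 of the 7 rose and 0 fell. Vim, vimentin of mesenchymal and some immature epithelial cells, was at 178, 216 and 87.0 TPM at E16.5 and at 320, 388 and 309 TPM at E18.5 (log2 fold change 1.17, limma adjusted p = 0.034, and 0.71 without a call with median-of-ratios scaling). The nuclear lamins did not pass, with log2 fold changes of 0.11 for Lmna, 0.39 for Lmnb1 and 0.13 for Lmnb2 that all turned below 0 with median-of-ratios scaling.

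The genes most like each keratin were found by Pearson's r of log2(TPM + 1) over the 6 libraries among 11383 protein-coding genes averaging 5 TPM or more, as a description only, since the libraries fall into 2 stages. Krt7 was most like Cldn23, a claudin of tight junctions, Pkp3 and Zc3h13. Krt8 was most like Arsg, Plppr3 and Fdx1, and Krt18 most like Irgm1, Gnptg and Hao2. Krt19 was most like Usp43, Zfp467 and Sh2d4a. Krt20 was most like Pnpla3, a lipid droplet enzyme, Kmo, an enzyme of tryptophan breakdown, and Alpl, an alkaline phosphatase. Krt23 was most like Ccdc138, N4bp2l1 and Rbms2. These r values lay between 0.984 and 0.999, and r exceeded 0.95 for 58 genes with Krt18, 265 with Krt20, 686 with Krt19, 732 with Krt8, 1287 with Krt7 and 2029 with Krt23, so a high r was common in this design.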

How the data were processed

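Total RNA of the sorted cells was sequenced from stranded libraries. Haematopoietic cells were depleted on magnetic beads before the sort. After quality control with FastQC 0.11.7 and trimming with Trimmomatic, the authors used HISAT2 2.1.0 for alignment to GRCm38 and HTSeq 0.5.4p3 for counting on GENCODE vM15; the strand setting is not given in the sources used here. The deposited TPM values were made by the authors from these counts, and they sum to 1000000 per library, with all 37 mitochondrial genes at 0.

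Names came from GENCODE vM21, which holds 52403 of the 52550 identifiers. The product of TPM and exon length, over the worth of 1 read, gave back reads, whole within 0.01 for 100% of nonzero values of genes with an unchanged identifier version. For Krt7, Krt8 and Krt18, whose versions changed, the length giving whole reads was used (7055, 1805 and 1400 bases). These reads served for depth and counting intervals, and 3 reads, the limit that 0 reads would allow, came to between 0.0496 and 0.528 TPM for the members. Intervals cover counting error only.

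limma 3.58.1 (R 4.3.3; lmFit, then eBayes with trend) was run on log2(TPM + 1) of the 22452 genes averaging 1 TPM or more, with an adjusted p (Benjamini-Hochberg) under 0.05 as the threshold; the steps were tested on simulated data. Fold changes on this scale understate those of low genes. Exact permutation tests were run in Python 3.11.15, and copies were sought with blastn 2.17.0 in the vM21 transcripts. No 2 libraries of the same stage were copies of each other (chi-square per degree of freedom of at least 17.1), and pairs across stages were not compared in this way.

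The members and lists were chosen with earlier results of these data known. Besides the members, the genes named were the 4 highest of the network and filament lists, any others there with adjusted p under 0.05 and a log2 change of 1 or more in size, other keratins averaging 1 TPM or more and the 3 genes most like each member. Dst was named outside this rule, after its values were seen. Of the cell type lists, only markers set beside a keratin are named. Alternatives were a pseudocount of 0.1, no filter or a mean of 5 TPM, median-of-ratios, quantile and rescaled TPM, eBayes without trend or robust, voom on recovered reads, a block for the replicate letters, and each library left out in turn.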

Additional observations from a re-analysis of the deposited data

How the results depend on the processing

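Krt20 and Krt23 passed under all 16 alternatives, Krt8 under 15 of 17, Krt7 under 9 of 16, Krt19 under 5 of 16 and Krt18 under 0 of 16. On the log2 scale, median-of-ratios scaling gave 0.95 for Krt7, 0.37 for Krt8, 1.49 for Krt19 (none past the threshold) and -0.034 for Krt18, which turned its direction; that scaling moved the median of all genes from 0.42 to 0.02. With quantile normalization Krt7 was at 1.03 and Krt19 at 1.75, neither past. With no filter (limma adjusted p = 0.069 and 0.089) or no trend (limma adjusted p = 0.053 and 0.066), Krt7 and Krt19 kept 1.38 and 1.94 without passing. Krt19 also missed the threshold with robust estimation (1.94, limma adjusted p = 0.0501) and a pseudocount of 0.1 (1.96, limma adjusted p = 0.0504). Leaving out 1 library gave 0.89 to 1.64 for Krt7, 0.67 to 0.92 for Krt8 and 1.16 to 2.43 for Krt19. The genes past the threshold numbered 7000, against 4282 with no filter, where more genes shared the adjustment, 3863 with median-of-ratios scaling, 3796 with quantile normalization and 1472 (without E18.5 A) to 5686 (without E18.5 C) with 1 library left out. The summed keratin difference was 324 TPM with median-of-ratios scaling against 1084 TPM. Except where named, the cause was not tested.

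Nothing in the labels says that the replicate letters pair the libraries; same-letter deviations correlated at -0.042, 0.081 and 0.140 over genes, not all above 0.1, and not every library correlated best with its own letter. With the letters as a block 7314 genes passed, and the log2 fold change of Krt19, 1.94, did not (limma adjusted p = 0.0542); the calls of the other members did not change. Of the other named genes, Dsc2 passed with the block (0.32, limma adjusted p = 0.044) and Krt88 no longer did (1.39, limma adjusted p = 0.052).

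Among the other keratins tested and the named network and filament genes, those that turned direction were Krt10, Dsc2, Lmna, Lmnb1 and Lmnb2. Krt10 was at 0.021 without E16.5 B and 0.21 without E18.5 C (range -0.40 to 0.21 with 1 library left out). Dsc2 was at -0.13 with median-of-ratios scaling. Lmna was at -0.34 with median-of-ratios scaling, -0.086 with quantile normalization, -0.032 with voom and -0.033 without E16.5 B (range up to 0.25). Lmnb1 was at -0.057 with median-of-ratios scaling. Lmnb2 was at -0.30, -0.24 and -0.012 in the first 3 settings given for Lmna and at -0.020 without E16.5 C (range up to 0.27). None of these genes passed on TPM as deposited without the block. With median-of-ratios scaling, Vil1, Sox17, Cdh17, Zc3h13, Irgm1 and Gnptg were also below 0. Depth limits Krt20 at E18.5 (45 to 120 reads) and Krt23 (63 to 195 reads) most.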
